A study of Mus musculus and synthetic construct with 21 samples.

Results

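The motif names ppar, pparg and rxr mark predicted binding sites of PPAR nuclear receptors and of their partner RXR in the designed enhancer elements of pools 5, 6 and 7 of a massively parallel reporter assay. The members were chosen by their names, with earlier results of these data known. In pool 5 they were 396 elements in which a native motif of 1 of these names was altered. In pool 6 they were 285 elements into which such a motif was inserted. In pool 7 they were 27 elements that carried an array of ppar motifs. Together they made up 708 of the 9937 elements of these pools that name a genomic site.

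The assay was run in 3T3-L1 cells, a mouse pre-adipocyte line that differentiates into adipocytes in culture. Each element sat beside a reporter whose transcript carried barcodes, and RNA barcode counts were set against the counts of the same barcodes in the transfected plasmid library. The cells behind all RNA libraries had been kept for 48 h in an induction medium that held dexamethasone (1 µM), insulin (1.7 µM) and IBMX (0.5 mM), and RNA was taken 16 h after transfection, whose timing relative to the induction is not given in the sources used here; the plasmid libraries were the DNA that was transfected. Each pool had 1 RNA and 1 plasmid library from this 1 cell line, and the elements were read from plasmids rather than from their native chromatin. The comparisons below are therefore between elements of 1 library pair, and their p-values cover the spread between genomic sites, not the spread between cultures.

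Adipocyte differentiation is driven by PPARγ, a nuclear receptor. It binds DNA as a heterodimer with RXR at direct repeats of the half-site AGGTCA separated by a single base, the DR1 element, with PPARγ on the upstream half-site and RXR on the downstream one. RXR also pairs with other receptors, such as RAR and LXR, on repeats with other spacings, so motifs named for PPAR and for RXR overlap in sequence. The names do not spell out which motif model lies behind ppar, pparg or rxr, and the letters of the altered and inserted motifs were not used here.

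Each site is named in the tables as a PPAR response element with the 16 bases of its core, and every altered, inserted or arrayed motif belongs to an element named by such a core. The cores of most sites with the lowest and highest differences after alteration are shown because they identify these elements. The core of site 455, also named below, is not shown. Whether an alteration reaches into a core is not given in the names. Letters are 5′ to 3′ on the strand given, coordinates are of mouse build mm9, and capitals mark the half-sites of the repeat.
Site 99, chr9:31069976-31069991, minus strand: agcAAGGCAgAGGGAA
Site 197, chr8:129376238-129376253, plus strand: actGTGGTAaAGGCCA
Site 304, chr4:15865443-15865458, minus strand: aggAGGTGAgAGTTCT
Site 49, chr4:81735791-81735806, plus strand: tctGGGTCAaAGTTAT
Site 377, chr5:30498798-30498813, plus strand: gctGGGCCAaGGGTAA
Site 560, chr19:6546230-6546245, plus strand: ggcAGGAGAaAGGGCA
Site 17, chr7:86926073-86926088, plus strand: tgtGGGTGAaGGGCCA
Site 318, chr1:108526252-108526267, plus strand: agcTGGTCAaAGGTCA
Site 488, chr16:35907701-35907716, minus strand: aggATGGCAaAGGGCA
Site 713, chr19:10381279-10381294, plus strand: actAGGGGAaAGGGGA
Site 716, chr11:101913433-101913448, plus strand: aatTGGTCAgAGGCCA
Among these cores, only the downstream half-site of site 318 matched AGGTCA at all 6 positions. The upstream half-site of site 197 matched at 2 positions.

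The cores that received inserted motifs and that stood out in pool 6, and the 3 cores that carried ppar arrays in pool 7, are shown likewise.
Site 138, chr9:31069961-31069976, minus strand: attGGGGAGaAGGGCA
Site 142, chr3:30881176-30881191, plus strand: tctGGGCAAaAGGGTA
Site 223, chr8:129376258-129376273, minus strand: cagAGGCCAaAGGGCA
Site 240, chr11:100720706-100720721, plus strand: agcTGGGCAaAGGGGA
Site 280, chr5:138648850-138648865, plus strand: ggtGGGTCAtGGGGCA
Site 152, chr5:130362872-130362887, plus strand: tctAGGGAAaAGGTCA
Background chr13, chr13:46069371-46069386, plus strand: tgaAGGTCAgAGTTTA
Background chr15, chr15:67824069-67824084, minus strand: agtAGGACAgGGGTTA
Background chr9, chr9:66727486-66727501, plus strand: agtGGGGCAgAGGGCA
The core of site 138 shares its last genomic base with the first base of site 99, and the core of site 223 lies 5 bases from that of site 197, so these pairs of elements overlap in sequence. No gene annotation of this build was used, and the sites were not assigned to genes.

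Activity below is how many RNA counts an element had for its plasmid counts, as a log2 ratio scaled to the library totals of its pool, so that 0 is the level of the whole pool and 1 log2 unit is a 2-fold difference. The pool 5 libraries held 14308296 RNA and 15815675 plasmid counts over distinct elements, those of pool 6 held 14198899 and 19193436, and those of pool 7 held 9806531 and 10179019. The median plasmid count of an element was 4939.5 in pool 5, 5447 in pool 6 and 3223 in pool 7. All member elements had at least the 50 plasmid counts required.

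Pool 5 asked what native motifs around a PPAR response element contribute: at 245 sites, each predicted motif was altered in turn and set against the unaltered element of the site (wt). Alteration of a ppar, pparg or rxr motif lowered activity by close to 1 log2 unit on average, and the 3 names did so to a similar extent. There were 102 altered ppar motifs at 92 sites, 147 pparg motifs at 127 sites and 147 rxr motifs at 123 sites. Of the 143 sites with any of them, 78 held all 3 names, 43 held 2 and 22 held 1.

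The names are not independent labels in this pool. Elements listed under several names with identical barcode numbers and counts were taken as 1 element, and the 396 listed alterations were 336 distinct elements. The names ppar and rxr shared 22 elements, 21.6% of the ppar and 15% of the rxr alterations. The names pparg and rxr shared 38 elements, 25.9% of each, whereas ppar and pparg shared 0. Where alterations of 2 member names at a site began at the same numbered position but were distinct elements, which occurred in 80 pairs at 51 sites, their activities differed by a median of 0.15 log2 units. Where they began 16 or more positions apart, in 110 pairs at 35 sites, the median difference was 0.87 log2 units. Across these pairs, which share their wt element and library, the differences from wt had a Pearson r of 0.93 for the same position and 0.02 for the distant ones. Pairs 1 to 6 positions apart lay between, with a median difference of 0.24 and an r of 0.82. So did those 7 to 15 apart, with 0.46 and 0.43. Different names at 1 position thus gave similar values in the median, although the largest difference was 1.38 log2 units. Distant alterations of 1 site gave unlike values.

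With ppar motifs altered, mean activity over the 92 sites was −1.03, against −0.06 for the wt elements of these sites. The difference per site ranged from −2.75 to 0.70 with a median of −0.88, and activity was below wt at 84 of 92 sites. The mean difference was −0.97 ± 0.74 (SD over sites, n = 92; 95% interval −1.12 to −0.82; adjusted p = 1.95e-05, sign-flip permutation test with Benjamini-Hochberg adjustment over 37 motif names). The unadjusted p of 1e-05 is the smallest that 100000 permutations can give, for all 3 names.

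With pparg motifs altered, mean activity over the 127 sites was −0.87, against 0.09 for their wt elements. The difference ranged from −3.20 to 1.46 with a median of −0.90, and 113 of 127 sites were below wt. The mean difference was −0.96 ± 0.87 (SD, n = 127; 95% interval −1.11 to −0.80; adjusted p = 1.95e-05, same permutation test).

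With rxr motifs altered, mean activity over the 123 sites was −0.91, against −0.02 for their wt elements. The difference ranged from −2.88 to 1.52 with a median of −0.85, and 107 of 123 sites were below wt. The mean difference was −0.89 ± 0.90 (SD, n = 123; 95% interval −1.05 to −0.73; adjusted p = 1.95e-05, same permutation test).

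These losses were not particular to PPAR and RXR motifs. Of the 37 motif names tested against wt, 34 (91.9%) were lower, and from the lowest mean up, ppar ranked 11, pparg 13 and rxr 15. The name ranked directly above ppar was dax1, a nuclear receptor that lacks the usual DNA-binding domain, with a mean difference of −0.97, and the name directly below was hlf, a bZIP factor, with −0.96; these differ from ppar by far less than the spread over sites. Between pparg and rxr came ap1 with −0.91, and below rxr came vbp with −0.87. The 10 other nuclear receptor names listed for comparison were rar, hnf4, couptf, nr2f2, err1, err2, err3, dax1, tr4 and lxr. All 10 were lower than wt, with means between −1.02 for hnf4 and −0.72 for tr4. Their median was −0.86, which is also the median over all 37 names. The name nr1, not on this list, had a mean of −0.86.

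Single alterations gave the same picture. At least 1 log2 unit was lost in 44 of 102 ppar alterations (43.1%), 66 of 147 pparg alterations (44.9%) and 63 of 147 rxr alterations (42.9%), against 36.8% of all altered elements of the pool and 17.6% of its control elements. Among the control elements listed under each name, the share was 15.7% for ppar, 29.6% for pparg and 16.4% for rxr. A gain of at least 1 log2 unit was seen in 0 ppar, 2 pparg and 6 rxr alterations, against 1.05% of all altered elements.

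The table also holds control alterations, listed with a motif name and the suffix ctrl; what was changed in them, and where, is not spelled out. The controls listed under ppar averaged −0.33 ± 0.61 from wt (SD, n = 51 elements at as many sites), those under pparg −0.42 ± 0.91 (n = 71) and those under rxr −0.42 ± 0.86 (n = 67). Controls were thus also below wt on average, but in part at other sites than the alterations. Sites with both an alteration and a control of the same name numbered 17 for ppar, 41 for pparg and 33 for rxr.

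Where a site held both an alteration and a control of the same name, alteration lowered activity beyond the control for ppar, and the test was not passed for pparg and rxr. For ppar the difference was −0.69 ± 0.74 log2 units (SD, n = 17 sites; 95% interval −1.06 to −0.31; adjusted p = 0.0158, sign-flip permutation test), and 14 of 17 sites were lower. This name was the 1 of 11 tested (9.09%) that passed, and with elements listed under several names left out it no longer did (−0.66, n = 11, adjusted p = 0.0742, exact sign-flip test). For pparg the difference was −0.45 ± 1.08 (SD, n = 41; 95% interval −0.79 to −0.11; adjusted p = 0.0533, permutation test), with 28 sites lower, 12 higher and 1 at which alteration and control were the same element. For rxr it was −0.17 ± 1.08 (SD, n = 33; 95% interval −0.55 to 0.22; adjusted p = 0.418, permutation test), with 21 sites lower and 12 higher. Whether the names differ in this measure was not tested, since they share few sites with controls.

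Against all distinct controls of a site, whatever their name, a comparison added after the data were seen, the 3 names lay close together. Activity was lower by a mean of −0.57 ± 0.91 log2 units for ppar (SD, n = 86 sites, 66 lower), −0.47 ± 1.11 for pparg (n = 118, 84 lower) and −0.45 ± 1.12 for rxr (n = 115, 81 lower). The adjusted p was 9.25e-05 for each in the sign-flip permutation test, and 22 of 37 names (59.5%) passed. Of the 10 other nuclear receptor names listed, 5 were lower. So was nr1, not on that list, with −0.42 ± 0.66 (n = 54 sites; adjusted p = 0.000211, same test).

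Compared directly at sites that hold both names, with elements shared by the pair left out, the 3 names could not be separated, and the 95% intervals lay between −0.14 and 0.13 log2 units. Altered ppar minus altered pparg was −0.01 ± 0.60 (SD, n = 83 sites; 95% interval −0.14 to 0.12; adjusted p = 0.961, permutation test). Altered ppar minus altered rxr was 0.01 ± 0.49 (n = 67; −0.11 to 0.13; adjusted p = 0.975, permutation test). Altered pparg minus altered rxr was −0.00 ± 0.53 (n = 80; −0.12 to 0.12; adjusted p = 0.987, permutation test). Of the 291 pairs of names tested in the pool, 6 (2.06%) differed. Among distinct alterations of 2 member names at a site, 80 pairs began at the same position and 127 began 1 to 6 apart. A further 17 began 7 to 15 apart and 110 began 16 or more apart. Many compared alterations thus lay at the same or nearby positions, so this comparison cannot separate the name from the position.

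The altered motifs had numbered positions between 1 and 139, and none of any name began after 59 and before 77. The mean difference from wt was lower on the low-numbered side for each member. Low-side alterations averaged −1.09 ± 0.86 for ppar (SD, n = 52 sites), −1.12 ± 0.90 for pparg (n = 81) and −1.07 ± 0.99 for rxr (n = 83). High-side ones averaged −0.88 ± 0.70 (n = 45), −0.70 ± 0.86 (n = 61) and −0.58 ± 0.86 (n = 58) in the same order of names. Over all motif names the sides averaged −0.79 and −0.55, so the order of the sides was shared by the pool. All these gaps were smaller than the SD over sites, which is the spread of single sites and not the uncertainty of a mean. The difference between sides was not tested.

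By position, the mean difference per altered element was closest to 0 towards the far end of the high-numbered side, as it was in the pool as a whole. Over all motif names it was −1.02 ± 0.94 at positions 40 to 59 (SD, n = 228) and −0.38 ± 0.48 at 117 to 139 (n = 165). For ppar it was −1.54 ± 0.90 at positions 77 to 90 (SD, n = 14) and −0.45 ± 0.41 at 117 to 139 (n = 8). For pparg it was −1.36 ± 0.99 at positions 40 to 59 (n = 23) and −0.41 ± 0.52 at 117 to 139 (n = 8). For rxr it was −1.27 ± 0.98 at positions 27 to 39 (n = 21) and −0.53 ± 0.52 at 117 to 139 (n = 10). Its value closest to 0 was −0.44 ± 0.89 at positions 104 to 116 (n = 12). The first positions, 1 to 13, held the lowest mean for ppar, −1.59 ± 1.18 (n = 11). These bins hold few elements and their ranges overlap throughout.

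The sites with the largest losses differed in how their controls behaved. At site 304 the altered element, listed as both ppar and rxr at position 46, had 822 RNA and 3230 plasmid counts, against 15962 and 9976 in the wt element. Its activity was −1.83, against 0.82 in wt, while the 4 controls of the site lay between 0.00 and 0.15 log2 units from wt. At site 49 the pparg alteration at position 41 had 3019 RNA and 5206 plasmid counts, and the rxr alteration at position 42 had 3801 and 5242, against 76275 and 14307 in wt. Activity was −0.64 and −0.32 in these altered elements, against 2.56 in wt, differences of −3.20 and −2.88 log2 units, while both controls were above wt by 0.63 and 0.74. Site 560 was alike: its pparg alteration at position 52 had an activity of −1.32, against 1.59 in wt, and its 5 controls were 0.53 to 0.80 above wt. At these 3 sites, the control elements kept the activity that the altered elements had lost.

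At other sites the controls fell as well. At site 377 the pparg alteration at position 4 was −3.18 log2 units from wt, and its 3 controls were −3.10 to −2.91 from wt. At site 99 the ppar alteration at position 79 had an activity of −1.50, against 1.24 in wt, a difference of −2.75, and its controls were −1.72 and −1.68 from wt. At site 197 the ppar alteration at position 85 was −2.66 from wt, with 3 controls between −1.20 and −0.89. Site 17 had no control: its 2 rxr alterations lay −3.93 (position 8, the same element as ppar at 8) and −1.50 (position 45) from a wt activity of 2.65.

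The highest sites were above their wt element. At site 716 the rxr alteration at position 15 had an activity of 0.38, against −1.14 in wt, and its 6 controls ranged from −0.14 to 1.71 from wt. At site 488 the pparg and rxr alterations at position 113 were separate elements with activities of 1.05 and 1.02, against −0.41 in wt, while the 3 controls were −0.32 to −0.18 from wt. At site 713 the alteration at position 79, listed as pparg and rxr, was 1.17 above wt, with 3 controls between −2.92 and −2.21. The highest ppar sites were 455, at 0.70 above wt with controls of −1.37 and −1.29, and 318, at 0.48 above wt. The altered element of site 318 is also listed as rxr, and the 2 controls of that site were −0.29 and 1.04 from wt. At sites 488, 713 and 455 the altered element thus exceeded wt where every control was below it.

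The same sites were measured in pool 1, in separate libraries. The difference after alteration in pool 5 was more negative where native activity in pool 1 was higher, with a Pearson r of −0.33 over 92 sites for ppar, −0.44 over 127 for pparg and −0.40 over 123 for rxr, and of −0.18 over 232 sites for the controls. Both pools share the site sequence, and the wt element of pool 5 enters the difference. The log2 ratio of PPARγ ChIP to input on the pool 1 plasmids had an r of −0.14 (n = 77), −0.04 (n = 104) and −0.11 (n = 101) for the 3 names in the same order, which is weak. In the pool 1 form whose name is read here as an altered core, activity was −1.37 ± 0.86 from the native form at the ppar sites, −1.39 ± 0.79 at the pparg sites and −1.33 ± 0.81 at the rxr sites (SD over the same sites). That difference was lower than the pool 5 difference at 64 of 92, 86 of 127 and 82 of 123 sites, side by side values from pools that were scaled separately.

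Pool 6 turned the question round and asked what a motif adds: 39 motif names were each inserted into 95 slots at 15 sites, where a slot is a numbered interval that held a native motif. Here the 3 names parted. Inserted ppar and rxr motifs gave higher activity than the mean of all inserted motifs in the same slot at every site, by about 0.8 log2 units, and inserted pparg motifs did not. Each name had 95 elements, 1 per slot, and all 285 member elements passed the plasmid minimum.

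Inserted ppar motifs were above the slot mean by between 0.15 and 2.03 log2 units per site, with a median of 0.67. The mean was 0.79 ± 0.44 (SD, n = 15 sites; 95% interval 0.56 to 1.04; adjusted p = 0.000159, exact sign-flip test over 39 names), and 92 of 95 slots were above. The unadjusted p of 6.1e-05 is the smallest that 15 sites allow.

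Inserted rxr motifs were above the slot mean by between 0.34 and 1.87 per site, with a median of 0.73. The mean was 0.78 ± 0.37 (SD, n = 15; 95% interval 0.59 to 0.99; adjusted p = 0.000159, exact sign-flip test), and 94 of 95 slots were above.

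Inserted pparg motifs ranged from −0.33 to 0.38 around the slot mean, with a median of 0.04. The mean was 0.02 ± 0.18 (SD, n = 15; 95% interval −0.08 to 0.11; adjusted p = 0.776, exact sign-flip test), with 9 sites above and 6 below. Against the slot median of the other motifs instead of the mean, the pparg value was 0.11 with an adjusted p of 0.0428 (exact sign-flip test).

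Of the 39 inserted names, 13 (33.3%) were higher than the slot mean and 17 (43.6%) were lower. From the highest mean down, ppar ranked 3, rxr 4 and pparg 18. Only bach1, with 1.00, and ap1, with 0.86, had higher means than ppar; both name bZIP motifs of the AP-1 type. Directly below rxr came fra1, an AP-1 subunit, with 0.67, and jun, another, with 0.54. Among the 10 other nuclear receptor names, 1 was higher than the slot mean and 3 were lower; their means ran from −0.50 for err3 to 0.31 for dax1, so ppar and rxr lay above each of them.

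At least 1 log2 unit above the slot mean were 25 of 95 ppar elements (26.3%), 23 of 95 rxr elements (24.2%) and 0 of 95 pparg elements, against 7.89% of all inserted elements. Within a slot, the median rank of ppar and of rxr among the 39 names was 5, and each ranked first in 9 slots. The median rank of pparg was 16, and it ranked first in 0 slots.

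The direct comparison in the same slots separated pparg from ppar and rxr. Inserted ppar averaged an activity of 0.30, against −0.47 for inserted pparg. The difference per site lay between 0.22 and 2.07 with a mean of 0.77 ± 0.47 (SD, n = 15; 95% interval 0.53 to 1.04; adjusted p = 0.000174, exact sign-flip test over 741 pairs of names), and ppar was higher at 15 of 15 sites and in 90 of 95 slots. Inserted pparg minus inserted rxr was −0.76 ± 0.41 (SD, n = 15; 95% interval −0.99 to −0.56; adjusted p = 0.000174, exact sign-flip test), with pparg lower at 15 of 15 sites. Inserted ppar minus inserted rxr was 0.01 ± 0.14 (SD, n = 15; 95% interval −0.07 to 0.08; adjusted p = 0.848, exact sign-flip test), with ppar higher in 48 of 95 slots. In this pool 554 of 741 pairs (74.8%) differed, so a difference between 2 names was common, and the pair of ppar and rxr was among those that did not pass.

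The names ppar and rxr also followed each other from slot to slot. Over the 95 slots, the value above the slot mean had a Pearson r of 0.77 between ppar and rxr, the highest for either. The next names for ppar were lxr with 0.37 and rar with 0.27, and for rxr ctf1 with 0.23 and nf1 with 0.22. The names most like pparg were sna with 0.29, err2 with 0.29 and err3 with 0.26, while its r was 0.06 with ppar and 0.04 with rxr. Slots of a site share its surroundings, and all values share 1 library pair. The letters of the inserted motifs were not used, so whether the ppar and rxr insertions were distinct or nearly identical sequences was not tested. The r of 0.77 was therefore not read as agreement between independent motifs.

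The ppar and rxr insertions also shared a shallow depth, which moved with the result. Their elements had a median of 68 and 65 barcodes and 1856 and 1854 plasmid counts, against 131 barcodes and 4411 plasmid counts for pparg and medians of 109 to 164 barcodes and 4259 to 6384 plasmid counts for the other names. With elements of at least 1000 plasmid counts only, an alternative added after the data were seen, ppar minus pparg was 0.77 and pparg minus rxr −0.78 (adjusted p = 0.000238 each, exact sign-flip test).

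Site by site, the ppar and rxr values were high and low together. The highest were at site 138, where inserted ppar averaged 2.03 above the slot mean, rxr 1.87 and pparg −0.05 over 3 slots. Next for both was site 142, with 1.19 for ppar, 1.16 for rxr and 0.00 for pparg over 6 slots. The lowest for ppar were site 152, with 0.15 in its single slot, and site 280, with 0.26 over 8 slots; for rxr they were site 280, with 0.34, and site 330, with 0.39. For pparg the highest were site 206, with 0.38, and site 31, with 0.18, and the lowest were site 330, with −0.33, and site 182, with −0.25.

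The highest single ppar and rxr insertions were also at site 138, while the other extreme slots were not all at the extreme sites. In the slot at positions 51 to 65 of site 138, which held a native rxr motif, inserted ppar had 5194 RNA and 1786 plasmid counts and an activity of 1.97, and inserted rxr had 4004 and 1918 counts and an activity of 1.50, against a slot mean of −0.45. In the overlapping pparg slot at 50 to 65, inserted ppar and rxr had activities of 1.76 and 1.83, against a slot mean of −0.50. The highest pparg insertion was in the bach1 slot at 30 to 44 of site 223, with an activity of 1.41, against a slot mean of 0.43. The lowest was in the foxo4 slot at 19 to 32 of site 330, with −1.47, against a slot mean of −0.33. The lowest ppar insertion was in the err1 slot at 122 to 136 of site 280, with 275 RNA and 899 plasmid counts, −0.22 from the slot mean.

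Against the unaltered element, the mean differences of ppar and rxr were smaller than against the slot mean. An insertion replaces the native sequence of the slot, and its part in these values was not tested. Over 15 sites, the mean over all inserted names was −0.20 from wt. Inserted ppar was 0.59 ± 0.59 above wt (SD, n = 15; 95% interval 0.26 to 0.92; adjusted p = 0.00969, exact sign-flip test) and higher at 13 of 15 sites. With the median over sites in place of the mean the value was 0.60 and its adjusted p 0.0802 (exact sign-flip test). Inserted rxr was 0.58 ± 0.53 above wt (95% interval 0.28 to 0.87; adjusted p = 0.00688, exact sign-flip test) and also higher at 13 of 15. Inserted pparg was −0.18 ± 0.72 from wt (95% interval −0.59 to 0.22; adjusted p = 0.443, exact sign-flip test), with 7 sites above and 8 below. Both ppar and rxr were among the 5 of 39 names (12.8%) that were higher than wt, while 12 names (30.8%) were lower.

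Inserted ppar and rxr were above wt at all sites with a low wt activity, and at 1 of 3 with a high one. At the 12 sites whose wt activity lay between −1.31 and 0.50, inserted ppar was 0.16 to 1.36 above wt and rxr 0.30 to 1.33 above it. The largest gain was at site 240, where inserted ppar had a mean activity of 0.72 and rxr of 0.69 over 14 slots, against −0.64 in wt. At the 3 sites with wt activity of 1 or more, the mean over all inserted names was −1.45 from wt. There inserted ppar had mean activities of 0.46 at site 223, 1.53 at site 142 and 2.06 at site 138, against 1.11, 1.82 and 1.62 in wt at these sites. Inserted pparg had −0.22, 0.35 and −0.01 there, differences from wt of −1.32, −1.48 and −1.63 log2 units. These groups were formed by the wt value, which also enters the difference, so no test was made.

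The native name of the slot made little difference to the order. In the 19 slots that held a native ppar, pparg or rxr motif, inserted ppar was 0.90 ± 0.68 above the slot mean, rxr 0.94 ± 0.58 and pparg −0.07 ± 0.30 (SD over slots). In the 76 slots of other factors the values were 0.75 ± 0.38, 0.74 ± 0.36 and 0.05 ± 0.33. Inserted ppar exceeded inserted pparg in 19 of 19 and in 71 of 76 of these slots. Without the member slots, ppar minus pparg was 0.77 over 14 sites (adjusted p = 0.000307, exact sign-flip test).

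Neither the side nor the length of a slot changed that order. On the low-numbered side (54 slots) inserted ppar minus inserted pparg was 0.80 ± 0.57, and on the high-numbered side (41 slots) 0.70 ± 0.51 (SD over slots). In slots whose end numbers were 6 to 10 apart it was 0.81 ± 0.41 (n = 20), and in those 19 to 28 apart it was 0.62 ± 0.39 (n = 9). The 95 slots cover 82 distinct intervals, because some intervals held native motifs of several names. For insertions over 1 interval, listed once per native name, the median difference in activity was 0.17 log2 units for ppar, 0.28 for pparg and 0.29 for rxr, over 14 pairs each. The largest such difference was 0.84 for ppar, 0.91 for pparg and 0.59 for rxr, so single pairs of repeated intervals differed by as much as the mean of ppar minus pparg.

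Slots that received a motif of their own native name gave values on both sides of wt for each name. In the 6 pparg slots, inserted pparg lay between −2.28 and 0.02 from wt with a median of −0.29, and was below wt in 5. In the 10 rxr slots, inserted rxr lay between −1.39 and 1.65 with a median of 0.69, and was below wt in 4. In the 3 ppar slots, inserted ppar was −1.95, −0.24 and 1.86 from wt. An inserted motif thus did not always restore the level of the native one of the same name.

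Set side by side, the 3 names ranked close together after alteration and apart after insertion. Altered in pool 5, ppar, pparg and rxr averaged −0.97, −0.96 and −0.89 from wt. Inserted in pool 6, they averaged 0.79, 0.02 and 0.78 from the slot mean. The pools were scaled separately and use different sites and reference elements, and no test joins them. In pool 5, alterations of different member names often began at the same or nearby positions of a site, whereas in pool 6 every name went into every slot.

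Pool 7 asked how activity scales with the number and mix of motifs: arrays of 2, 4 or 6 motifs were built on 3 backgrounds. The 27 ppar_ppar arrays, with only ppar motifs, came in 3 numbered arrangements per background and copy number; the names do not say how arrangements differ. Of the 27 arrays, 26 were above their background element and 23 (85.2%) were at least 1 log2 unit above it, against 39.3% of all arrays and 34.4% of arrays built of 1 other motif. With 3 backgrounds measured once each, values are described and not tested.

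More ppar copies went with higher activity in the median. The median over 9 arrays was 1.27 log2 units above background with 2 copies, 2.27 with 4 copies and 2.53 with 6 copies. Among arrays built of a single motif name, the ppar median ranked 1 of 15 names at 2 copies, ahead of bach1 with 0.74 and lxr with 0.15. It ranked 2 at 4 copies, below fra1 with 2.34 and above bach1 with 2.16, and 5 at 6 copies, where fos with 3.46, jun with 3.04 and fra1 with 2.90 led. In single comparisons of 1 background, copy number and arrangement, ppar ranked first in 7 of 27 and among the first 3 in 16 of 27.

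On the chr13 background, whose own element had 21377 RNA and 43479 plasmid counts and an activity of −0.97, the 2-copy arrays had activities of 0.54, −0.22 and −0.80 in arrangements 1, 2 and 3. The 4-copy arrays had 1.49, 0.59 and 0.89, and the 6-copy arrays 1.07, 0.50 and 1.42. All 9 were above the background, the third 2-copy array by 0.17. The means above background were 0.81 ± 0.67, 1.96 ± 0.46 and 1.97 ± 0.47 for 2, 4 and 6 copies (SD over 3 arrangements), so 4 and 6 copies did not differ beyond the spread.

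On the chr9 background, with 19901 RNA and 50127 plasmid counts and an activity of −1.28, the 2-copy arrays had activities of −0.01, −0.13 and 0.31. The 4-copy arrays had 1.10, 0.99 and 1.47, and the 6-copy arrays 1.25, 1.14 and 1.78. The means above background were 1.34 ± 0.22, 2.46 ± 0.26 and 2.67 ± 0.34 (SD over 3 arrangements). All 2-copy arrays were below all 4-copy arrays, and 4-copy and 6-copy arrays overlapped.

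The chr15 background was measured thinly, and its values spread more. Its own element had 1194 RNA and 7444 plasmid counts and an activity of −2.59, the median plasmid count of its arrays was 981.5, and 136 of its 1080 arrays had 0 RNA counts, against 20 on chr13 and 22 on chr9. The 2-copy ppar arrays had activities of −1.35, 0.33 and −0.07, and the 6-copy arrays 1.38, 1.97 and 1.38, which are 3.97, 4.56 and 3.97 above background. Of the 4-copy arrays, the first had 288 RNA and 944 plasmid counts and an activity of −1.66, and the third 1960 and 1344 counts and an activity of 0.60. The second had 0 RNA counts against 299 plasmid counts. Taken at a floor of 3 RNA counts, its ratio was at least 16.0-fold below that of the background element. This bound covers counting error only, and why the array had no RNA counts was not tested. That array was the only ppar array below its background, and 3 ppar arrays, all on chr15, had under 1000 plasmid counts. Without the chr15 background the medians above background were 1.21, 2.32 and 2.41 log2 units for 2, 4 and 6 copies.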

How the data were processed

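The members and the lists of motif names were chosen with earlier results of these data known. The authors deposited raw read counts, which pools 5 to 7 give as 1 sum per element and pool 1 gives per barcode, per the file headers; the pool 1 ChIP and input values are also deposited raw counts. Build mm9, Bowtie2 2.1.0 and BWA 0.7.12 are named in the submitters' processing notes.

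Libraries were grouped by their titles, 1 RNA and 1 plasmid library per pool. Activity was computed with Python 3.11.15, numpy 2.4.6 and pandas 2.3.3 as log2((RNA + 1)/(plasmid + 1)) minus the log2 ratio of library totals, for elements with at least 50 plasmid counts. For pool 1 the median of the barcode values was taken, leaving out barcodes under 20 plasmid counts, and ChIP ratios needed at least 20 input counts. In pool 5, 101 rows that name no site (3.00% of RNA and 4.90% of plasmid counts of the table) were left out, and rows of a site with identical barcode numbers and counts were taken as 1 element. PCR reads are not independent molecules, so counts and floors cover counting error only.

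Differences were averaged per site. A 2-sided sign-flip test over sites was enumerated exactly up to 16 sites and otherwise used 100000 permutations, with Benjamini-Hochberg adjustment over all motif names with at least 6 sites, or over all pairs of names, and a threshold of 0.05. The 95% intervals invert this test. Scripts were tested on simulated data. Named elements are, per name, the 3 lowest and 2 highest pool 5 sites, the 2 highest and 2 lowest pool 6 sites (with single slots chosen likewise), every ppar_ppar array, the neighbours in rank and the 3 most alike names. Alternatives varied the pseudocount, the count minimums, the summary over sites, the unit, the treatment of shared elements and the reference. Positions are the numbers in element names.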

Additional observations from a re-analysis of the deposited data

How the results depend on the processing

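Over 268 recomputed values of the comparisons and their counts, 257 kept their side of the threshold. For counts this meant staying within 1.5 times, and for pool 7 medians within the SD over arrays. Values that were not called in either setting could change sign, and such values are among the 257. Of the rest, 2 fell short of the threshold, 4 newly passed it, 5 counts moved further and 0 reversed a called direction. All 172 values of named pool 5 alterations and pool 7 arrays stayed within their counting error under other pseudocounts and plasmid minimums. With the median over sites, inserted ppar against wt was 0.60 without passing, and 3 names in place of 5 were higher than wt. With each slot as its own unit, inserted pparg against wt was −0.23 and passed (adjusted p = 0.0173, permutation test), and 25 names in place of 12 were lower; slots of a site are not independent. Against the slot median of the other motifs, inserted pparg was 0.11 and passed. With elements listed under several names left out, altered ppar against its own control was −0.66 without passing, 0 of 9 names passed by the sign-flip test (4 had an unadjusted p under 0.05) where 1 of 11 did, and rxr, not called in either, was 0.32. Against all controls of the site, pparg (−0.47) and rxr (−0.45) passed, as did 22 names; the control elements and sites then differ. Without the site farthest from the median, 11 pairs of names in place of 6 differed in pool 5. Where no cause is given by the construction of an alternative, the cause was not tested.

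The mean difference from wt of altered ppar, pparg and rxr stayed between −1.0 and −0.83, inserted ppar and rxr against the slot mean between 0.67 and 0.89, and inserted ppar minus pparg between 0.68 and 0.78. For altered ppar against its own control, the adjusted p (sign-flip permutation test) ran from 0.0158 to 0.0742. Against all controls of the site, a different comparison, it was 9.25e-05. Over all settings the adjusted p (same test) ran from 0.0428 to 0.974 for inserted pparg against the slot mean. Against wt it ran from 2.29e-05 to 0.0802 for inserted ppar and from 0.0173 to 1 for inserted pparg. For inserted ppar and for rxr set against pparg it ran from 1.56e-05 to 0.0124. No test over replicate libraries was possible because each pool had 1 RNA and 1 plasmid library. Depth limits pool 7 most, on the chr15 background.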
